A study of Mus musculus with 20 samples.

Results

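The radiation response of mice labelled Il10-/- was measured in whole blood 24 h after total-body X-irradiation. The 10 arrays of the comparison, of 20 in the series, are those labelled Il10-/- 7 Gy (5 mice) and Il10-/- 0 Gy (5 mice), and they were chosen by these labels alone. Il10-/- mice (strain B6.129P2-Il10tm1Cgn/J, on the C57BL/6 background) carry a targeted allele of Il10 in every cell, and both groups share it. The 7 Gy group received X-rays to the whole body, and the 0 Gy group was handled in the same way with the source switched off. All were male, 8 to 10 weeks old, and bred from heterozygous parents together with the WT C57BL/6 mice that make up the other 10 arrays (5 at 0 Gy and 5 at 7 Gy). Blood was drawn by cardiac puncture at death, so each mouse gave a single time point. Globin RNA, which otherwise dominates blood RNA, was depleted before labelling.

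IL-10 is a cytokine by which T cells, B cells and macrophages hold back inflammation, and mice without it develop colitis. Ionizing radiation breaks DNA, and the kinases ATM and ATR then stabilize p53, which switches on genes of cell-cycle arrest, repair and apoptosis. Lymphocytes, above all B cells, are among the most radiosensitive cells of the body, while granulocytes, platelets and red cells that are already in the circulation do not divide and are resistant.

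Each value below is the log2 signal of a probe relative to the median probe of the same array, so 1 unit is a 2-fold step, and levels of different probes are not compared with each other. A change is the mean of the 5 irradiated minus the mean of the 5 unirradiated mice, given with its standard error (SE). It was called, and is described as having risen or fallen, when limma's moderated test gave p below 0.001 and the false discovery rate of Benjamini and Hochberg, taken over all features, stayed under 10%. The adjusted p-values quoted are Benjamini-Hochberg values from that limma fit. Blood is a mixture, and in bulk RNA fewer cells of a type and less RNA per cell cannot be told apart.

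The targeted gene was read first. The Il10 probe (chromosome 1, 132920943 to 132921002, build mm9) stood at 2.72, 3.00, 2.41, 2.49 and 3.11 in the unirradiated and at 1.94, 2.18, 2.86, 3.29 and 3.26 in the irradiated mice labelled Il10-/-. It was well above background on all 10 arrays, and its change was −0.04 ± 0.31 (SE). In mice labelled WT its group means were −1.54 without and −1.85 with irradiation. A signal in the knockout that exceeds WT runs against a loss of the transcript. The sources used here do not give whether the probe lies in the targeted part of the gene, so the probe does not check the labels and the genotype rests on them.

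Facts about the arrays precede the results because they touch them. Replicates 1 and 2 were near identical within each group. Over 11517 probes, the log2 differences between them had a robust SD of 0.145 at 0 Gy, against 0.411 to 0.819 for the other 9 pairs, and 0.235 at 7 Gy, against 0.304 to 0.500. They lie at the same position of different slides and are listed as separate mice, so n stays at 5. Counts that moved by more than 1.5 times with these replicates averaged, as 4 samples a group, are given with the averaged value, as are those of the main lists. The share of spots well above background was 49.4% to 57.8% at 0 Gy and 34.6% to 53.8% at 7 Gy. Genes of liver varied widely inside each group, as did genes of heart muscle. The mean level of 29 liver genes ran from 2.07 to 9.06 without and from 1.74 to 9.02 with irradiation, and that of 15 heart muscle genes from 0.33 to 2.74 and from 1.21 to 6.14. The part of this tissue RNA in the results was not tested, but counts with both mean levels as covariates are given. The heart mean was 0.65, 0.46, 0.36, 0.33 and 2.74 at 0 Gy and 6.11, 6.14, 3.75, 4.42 and 1.21 at 7 Gy. It thus largely follows dose, which widens the SE of a change in that fit. A call lost with the covariates is therefore no sign of tissue RNA by itself.

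Irradiation changed the blood transcriptome broadly, and in the median-scaled values more genes fell than rose. Of 18655 features tested, 1703 were called (9.13%), which correspond to 1553 genes. Among these, 559 genes rose and 997 fell, including 3 genes with probes of either direction. Counted by 1 probe a gene, 527 of 15796 rose (3.34%), 918 fell (5.81%) and in 2698 (17.1%) the groups did not overlap. These shares are the background for the list counts below. A list with counts near them is not set apart by its calls, as with the Th1, IL-12 and IL-27 axis, clustered histones, and glutathione and Nrf2 genes. Rises reached 2-fold in 519 genes, 4-fold in 135 and 8-fold in 22. Falls reached 2-fold in 881 genes, 4-fold in 293 and 8-fold in 82. The median change over all features was −0.10.

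These counts depended on the replicates and on the scaling. With replicates 1 and 2 averaged, 311 genes rose (1.97%) and 389 fell (2.46%). With the liver and heart levels as covariates, 298 rose (1.89%) and 323 fell (2.04%), and with the slide as a block 331 rose (2.1%) and 748 fell (4.74%). Leaving out unirradiated replicate 1 or 2 lowered the genes that fell from 997 to 613 and 608. In the median-scaled values 35.9% of the calls were rises. Scaling to a single reference array moved the median change to 0.14 and the split to 848 rises and 841 falls (50.2% rises). Of 126 named genes that were called, 95 were also called with replicates 1 and 2 averaged and 81 with the covariates. Those not called with the replicates averaged were Dcxr, Bok, Bcl2l1, Bmf, Sting1, Ccr2, Il18r1, Il5ra, Chil3, Mpo, E2f2, Slc25a37, Rgs18, Gng11, Ccnb2, Ube2c, Ung, H1f5, H2ac4, Mgst3, Atm, Atr, Prkdc, Rpl13a, Rpl4, Rps7, Creb5, Themis, Myh6, Myl2 and Tnnt2. Those not called with the slide as a block were Atr, Ccnb2, Chil3, Dcxr, Gbp2, Gng11, H2ac4, Il5ra, Irgm1, Lbp, Mpo, Myh6, Myl2, Prkdc, Rpl13a, Rpl4, Rps7, Saa1, Srxn1, Sting1, Themis and Tnnt2.

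**Figure D1:**
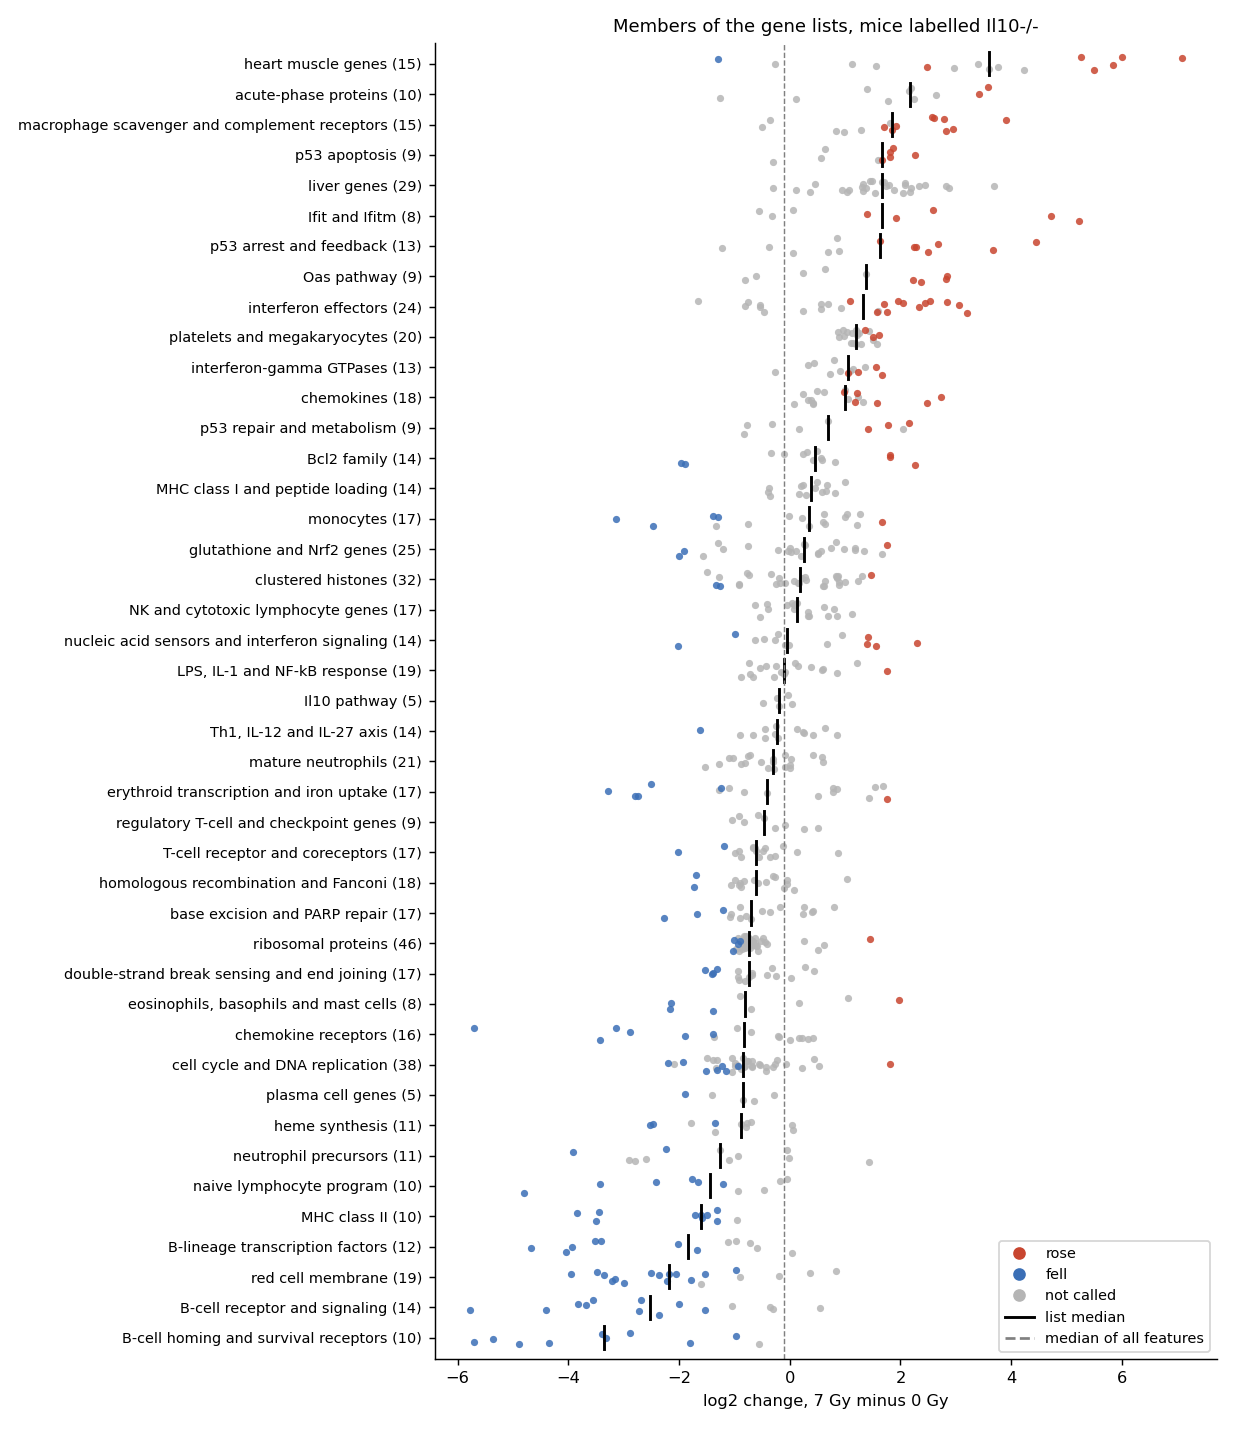
Log2 change (7 Gy minus 0 Gy) of every measured member of the gene lists in blood of mice labelled Il10-/-, with 1 row per list and 1 point per gene, red where it rose, blue where it fell and grey where it was not called. Black ticks mark list medians and the dashed line the median of all features. Interferon-induced and p53 lists lie mostly right of 0, and B-cell, MHC class II and red cell membrane lists lie left of it.

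Targets of p53 were among the largest rises. Cdkn1a encodes p21, the inhibitor of cyclin-dependent kinases that carries out p53's arrest. Its probe (chromosome 17, 29237377 to 29237436, mm9) read 2.03, 2.05, 1.49, 2.37 and 2.36 in unirradiated mice and 5.73, 6.12, 6.58, 6.77 and 7.35 in irradiated mice. Every irradiated mouse lay far above every unirradiated one. The change was 4.45 ± 0.31 (SE; adjusted p = 6.77e-06 in limma), or 21.9-fold, and within the 5 slides the difference ran from 3.70 to 5.09. The other Cdkn1a probe was well above background on all 5 irradiated and on no unirradiated array, and it also rose.

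Phlda3, which restrains the kinase Akt, stood at 4.48, 4.31, 3.34, 3.54 and 4.45 at 0 Gy and at 7.55, 7.54, 7.29, 7.88 and 8.25 at 7 Gy. The groups did not overlap, and the change was 3.68 ± 0.30 (SE). Psrc1, a microtubule-associated protein of the mitotic spindle, rose by 2.68 ± 0.34 (SE). Ccng1, the cyclin G1 gene and a p53 target, rose by 2.28 ± 0.23 (SE). In the list of p53 arrest and feedback genes, 7 of 13 measured members rose and none fell, with a median of 1.63. The same number rose with replicates 1 and 2 averaged. The other risers were Plk2 (2.50), Gtse1 (2.25) and Zmat3 (1.63). Mdm2, the ubiquitin ligase that degrades p53, changed by 0.89 and was not called. Btg2 (−0.37) and Gadd45a (−1.23) were not called either.

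The apoptosis targets of p53 rose as well. Of 9 measured apoptosis genes, 5 rose and none fell, with a median of 1.67, and averaging replicates 1 and 2 left 5. Tnfrsf10b, the death receptor for TRAIL, rose from 0.08, 0.14, −0.42, −0.09 and 0.18 to 2.35, 2.18, 1.46, 2.47 and 2.75. That is a change of 2.26 ± 0.27 (SE) with no overlap between the groups. Aen, a nuclease that digests DNA in apoptosis, rose by 1.86 ± 0.27 (SE). Bax, which opens the mitochondrial outer membrane, rose by 1.81 ± 0.24 (SE). Bbc3, the BH3-only protein PUMA, read 4.49, 4.48, 4.52, 4.67 and 4.48 without and 6.22, 6.14, 6.02, 6.63 and 6.64 with irradiation, a change of 1.81 ± 0.21 (SE). Fas (0.64), Pmaip1 (0.57) and Apaf1 (−0.31) were not called.

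The wider Bcl2 family was divided. Of 14 members, 3 rose and 2 fell, against 2 and none with replicates 1 and 2 averaged. Besides Bax and Bbc3, the proapoptotic Bok rose by 2.27 ± 0.50 (SE). Bcl2l1, which encodes the survival protein Bcl-xL and is abundant in maturing red cells, read 12.63, 12.55, 11.38, 11.33 and 13.18 in unirradiated and 9.85, 9.91, 9.79, 10.66 and 10.99 in irradiated mice. It fell by 1.97 on the log2 scale, and so did the BH3-only gene Bmf, by 1.89. In the list of p53 targets in repair and metabolism, 3 of 9 rose: Ephx1, the microsomal epoxide hydrolase (2.15 ± 0.34, SE), the carbonyl reductase Dcxr (1.78 ± 0.40, with overlapping groups) and the translesion polymerase Polk (1.42 ± 0.25). The nucleotide excision repair genes Xpc (−0.77) and Ddb2 (−0.83) were not called.

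**Figure D2:**
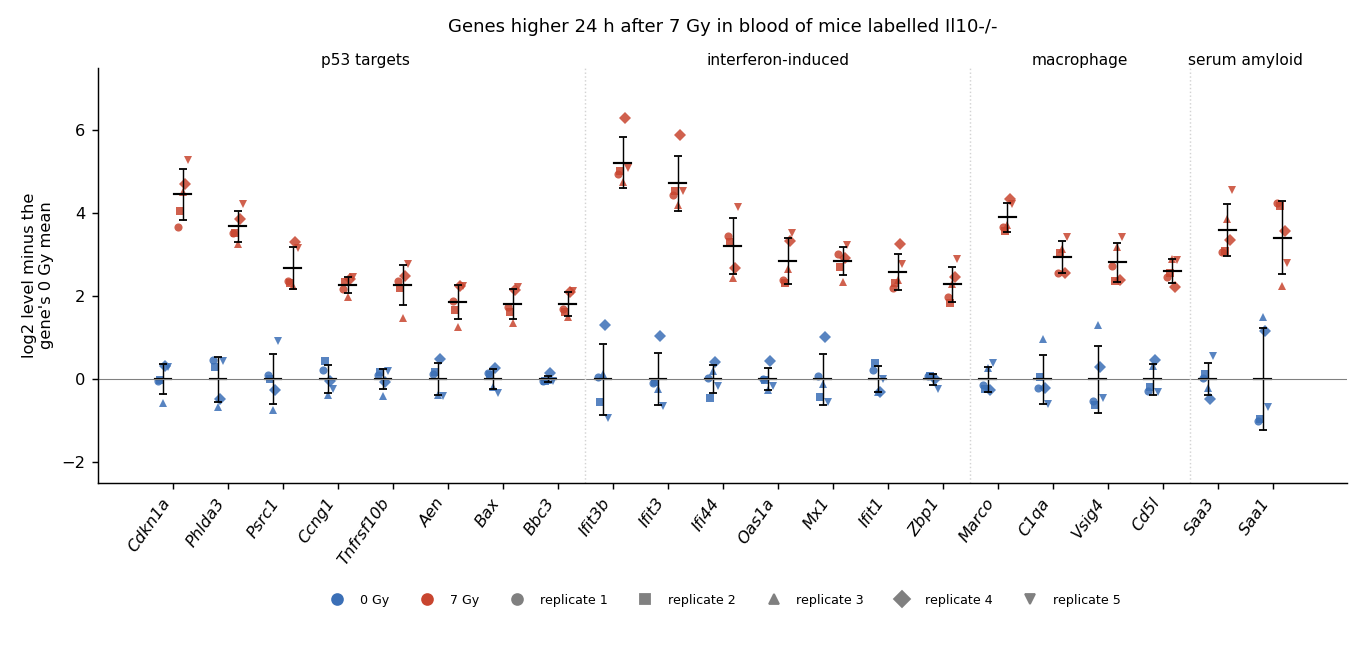
Log2 level of each array minus the gene's mean at 0 Gy, for genes that were higher 24 h after 7 Gy, by gene group. Blue points are the 5 unirradiated and red points the 5 irradiated mice labelled Il10-/-, with shapes for replicates, and bars show each group's mean and SD. The 7 Gy mean of Cdkn1a stands at 4.45, and its 5 irradiated values lie above all its unirradiated values.

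Among genes induced by interferon were the largest rises of genes whose groups did not overlap. Heart muscle genes with overlapping groups, among them Myh6, Myl2 and Tnnt2, had larger changes still. Interferons bind their receptors and activate a transcription factor complex that binds the interferon-stimulated response element (ISRE) before the target genes. Ifit3 and Ifit3b encode RNA-binding antiviral proteins with tetratricopeptide repeats. Ifit3 (chromosome 19, 34663105 to 34663164, mm9) read 2.62, 2.66, 2.47, 3.76 and 2.07 at 0 Gy and 7.16, 7.26, 6.92, 8.60 and 7.26 at 7 Gy. Irradiated replicate 4 stood highest and so did unirradiated replicate 4, and the groups were far apart. The change of Ifit3 was 4.72 ± 0.38 (SE; adjusted p = 1.19e-05 in limma), and within slides it ran from 4.44 to 5.19. The change of Ifit3b was 5.22 ± 0.42 (SE). These genes are near copies, so the share of each in the signals is uncertain. Of 8 Ifit and Ifitm genes 5 rose, with Ifit1 at 2.59 ± 0.26 (SE) and Ifit2 at 1.91. Ifitm1 (−0.32) and Ifitm6 (−0.56) were not called. Averaging replicates 1 and 2 left 5, and the liver and heart covariates left 3.

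The Oas genes sense viral double-stranded RNA and make an antiviral second messenger. Oas1a rose from 5.83, 5.79, 5.56, 6.26 and 5.67 to 8.21, 8.14, 8.48, 9.16 and 9.36, a change of 2.85 ± 0.29 (SE) without overlap. Oasl1 rose by 2.82 ± 0.40 (SE), Oas1f by 2.37 ± 0.28 (SE) and Oas2 by 2.23. Thus 4 of 9 measured members of this list rose and none fell, also with replicates 1 and 2 averaged. Oas3 (−0.61) was not called.

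Among the other interferon effectors 12 of 24 rose and none fell, with a median of 1.33, and 11 rose with replicates 1 and 2 averaged. Ifi44 read −0.21, −0.69, −0.03, 0.19 and −0.40 at 0 Gy and 3.22, 3.08, 2.22, 2.46 and 3.92 at 7 Gy. Its change was 3.21 ± 0.32 (SE) and its groups lay apart. Ifi27l2a rose by 3.06 ± 0.31 (SE). The antiviral GTPase Mx1 rose by 2.84 ± 0.31 (SE). Further rises were those of Bst2, the tetherin that holds virus particles at the membrane (2.54), Usp18, which removes ISG15 from proteins (2.44), and Rtp4 (2.34). Isg15 (−0.76) and Rsad2 (−1.66), which are classical interferon-stimulated genes, were not called.

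Of 13 GTPases induced mainly by interferon gamma 4 rose, at a list median of 1.05. They were Gbp9 (1.67 ± 0.23, SE), Gbp2 (1.56 ± 0.31), Irgm1 (1.23 ± 0.24) and Irgm2 (1.05). With replicates 1 and 2 averaged 3 of the list rose, with the covariates 2 and with the slide as a block 1, whereas 8 rose under scaling to 1 reference array and 7 under quantile normalization. The sensors were mixed, with 4 rises and 2 falls among 14. Zbp1, a sensor of Z-form nucleic acid, rose by 2.29 ± 0.24 (SE). Irf7, the master factor of the type I interferon response, rose by 1.56 ± 0.31 (SE). The RNA sensors Dhx58 (1.42 ± 0.25) and Ifih1 (1.39) rose as well. Irf8, a factor of B cells and monocytes, fell by 2.02 and Sting1, the adaptor of DNA sensing, by 0.98, with 1 fall left after averaging replicates 1 and 2 and none with the covariates. MHC class I and peptide-loading genes were not called in any of 14 members (median 0.38). They gave 5 rises under quantile normalization and 2 under scaling to 1 reference array.

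The promoters of interferon genes that rose are shown because the ISRE is the element known from such genes. The letters GAAANNGAAA, or their reverse complement TTTCNNTTTC, were searched in the 250 bases before each RefSeq gene start (GRCm38.p6), and matches may overlap. They occur in 936 of 27025 genes with a promoter (3.463%), in 332 of 9822 genes tested that have one (3.38%), in 23 of 361 that rose (6.371%) and in 19 of 562 that fell (3.381%). Of the interferon list members with a promoter, 8 of 20 that rose (40%) and 12 of 29 that did not (41.38%) hold a match, so the match did not separate them. Of the genes that rose and are in no interferon list, 15 of 341 held it (4.399%). The stretches below run 5′ to 3′ in the direction of transcription, with matched letters in capitals, and those of Ifit3 and Ifit3b differ at 0 bases:
Ifit3b, chr19:34607754-34607827, plus strand: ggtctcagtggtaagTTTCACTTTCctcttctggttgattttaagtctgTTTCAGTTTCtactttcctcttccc
Ifit3, chr19:34583358-34583431, plus strand: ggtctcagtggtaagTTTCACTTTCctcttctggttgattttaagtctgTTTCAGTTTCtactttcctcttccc
Ifit1, chr19:34640770-34640828, plus strand: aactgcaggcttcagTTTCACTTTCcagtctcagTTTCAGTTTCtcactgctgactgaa
Oas1a, chr5:120907526-120907560, minus strand: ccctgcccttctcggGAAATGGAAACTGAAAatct
Bst2, chr8:71537572-71537617, minus strand: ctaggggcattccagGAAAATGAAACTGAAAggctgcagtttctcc
Gbp2, chr3:142620589-142620628, plus strand: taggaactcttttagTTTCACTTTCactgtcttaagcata
A match is a run of letters and no measured binding site, and genes without it were not examined for other elements.

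Scavenger and complement genes of macrophages formed the third group of rises. Of 15 measured members 9 rose and none fell, at a median of 1.84. The count was 9 with replicates 1 and 2 averaged and 10 with the liver and heart covariates. Marco (chromosome 1, 122371170 to 122371230, mm9), a receptor that binds bacteria and particles, read 4.76, 4.66, 5.16, 4.63 and 5.28 at 0 Gy and 8.56, 8.47, 8.61, 9.24 and 9.11 at 7 Gy. Its change was 3.90 ± 0.24 (SE; adjusted p = 3.16e-06 in limma), and within slides the difference ran from 3.44 to 4.62. Outside the list, Folr2, the folate receptor of tissue macrophages, rose by 3.83 ± 0.61 (SE), although unirradiated replicates 3 and 4 (1.22 and 1.43) stood well above the other unirradiated mice (−1.53 to −1.30). C1qa, a chain of the complement component C1q, rose by 2.94 ± 0.31 (SE), with C1qc at 2.79 and C1qb at 2.57. The complement receptor Vsig4 rose by 2.81 ± 0.38 (SE). Cd5l, an apoptosis inhibitor secreted by macrophages, rose from 6.48, 6.59, 7.10, 7.25 and 6.46 to 9.23, 9.34, 9.67, 8.99 and 9.65. The receptors for dying cells Mertk (1.91), Axl (1.84) and Timd4 (1.71) also rose. Hmox1 (0.84), Slc40a1 (−0.36) and Spic (−0.50), which mark macrophages that recycle iron, were not called.

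All 18 measured chemokines had a positive change, at a median of 0.99, and 6 rose, against 3 with replicates 1 and 2 averaged or with the covariates. The eosinophil attractant Ccl24 rose from 0.65, 0.95, 2.76, 2.71 and 1.48 to 4.26, 4.23, 4.58, 4.63 and 4.54. This was a change of 2.74 ± 0.40 (SE), and the irradiated mice lay close together. Cxcl13, which draws B cells into follicles, rose by 2.48 ± 0.31 (SE). The macrophage chemokine Ccl9 rose by 1.57 ± 0.27 (SE). The interferon-induced Cxcl10 (1.04) and Cxcl9 (0.41) were not called.

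Serum amyloid genes rose in unlike ways. Saa3, the form made outside the liver, read 7.56, 7.67, 7.34, 7.06 and 8.09 at 0 Gy and 10.62, 10.64, 11.41, 10.91 and 12.10 at 7 Gy, a change of 3.59 ± 0.32 (SE). Saa1, a hepatic form, read 6.32, 6.37, 8.84, 8.49 and 6.66 and then 11.59, 11.52, 9.58, 10.91 and 10.13, so that its within-slide difference ran from 0.74 to 5.27. Saa1 was highest at 0 Gy in replicates 3 and 4, where the liver mean was also highest. Of 10 acute-phase genes 2 rose, and Hp (0.12) and Orm1 (1.39) were not called. The complement activator Cfd rose by 3.37 ± 0.46 (SE), with irradiated replicate 5 at 2.77 and the other irradiated mice at 5.06 to 5.33. Cfd was not called with the tissue covariates. In the list of LPS, IL-1 and NF-kB genes, Lbp, which delivers LPS to CD14, was the only call of 19 (1.75 ± 0.31, SE), and none was called with the slide as a block. Il1b (−0.72), Tnf (−0.25) and Nfkb2 (−0.89) were not called.

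Outside the lists, Anxa8, an annexin, rose by 3.27 ± 0.32 (SE). Its other probe that passed the filters changed by 1.59 and was not called. Col6a1, a collagen VI chain, was well above background on every irradiated and on no unirradiated array, and it was at least 12.4-fold higher at 7 Gy.

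Genes of the B-cell lists were among the largest falls. Ccr6 (chromosome 17, 8449933 to 8449992, mm9), the receptor for CCL20 on naive B cells, read 5.21, 5.23, 5.49, 6.22 and 5.83 at 0 Gy. After 7 Gy it read −0.67, −0.28, −0.37, 0.82 and −0.03. No irradiated mouse came near an unirradiated one, and Ccr6 fell by 5.70 (SE 0.31; adjusted p = 2.52e-06 in limma), or 52.0-fold. Vpreb3, a surrogate light chain partner in B-cell precursors, fell by 5.77, from 6.43, 6.27, 6.22, 6.85 and 4.90 to 0.88, 0.02, −0.03, −0.38 and 1.31. Fcmr, the receptor for IgM, fell by 5.36 (SE 0.28). Tnfrsf13c, the BAFF receptor on which mature B cells depend, was well above background on no irradiated array and was at least 29.7-fold lower there. Others of the 12 largest falls were in no list, among them Nsg2, which fell by 4.88 on the log2 scale, and Xkrx, which was at least 21.3-fold lower.

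Of 14 genes of the B-cell receptor and its signaling 10 fell and none rose, at a median of −2.53, and 9 fell with replicates 1 and 2 averaged. Cd79a, the signaling chain of the receptor, read 7.15, 7.30, 7.36, 7.75 and 6.83 without and 3.16, 3.41, 3.76, 3.30 and 3.61 with irradiation. Its fall was 3.83 (SE 0.23), and the groups lay far apart. Ms4a1, which encodes CD20, changed by −3.68 and Cd79b by −3.56. Lyn (0.55), Btk (−0.31) and Syk (−0.36), kinases that myeloid cells also use, were not called.

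Of 10 homing and survival receptors 9 fell, at a median of −3.35, and 8 with replicates 1 and 2 averaged. Fcer2a, which encodes CD23, was at least 20.3-fold lower. Of 12 B-lineage transcription factors 7 fell, at a median of −1.85, and averaging replicates 1 and 2 left 7. Bcl11a was at least 25.6-fold lower. Pou2af1, the B-cell coactivator of octamer factors, read 6.18, 6.20, 5.90, 6.51 and 4.96 and then 2.00, 1.61, 2.80, 1.69 and 1.39. Spib fell by 3.93 (SE 0.29). Pax5 (−1.12) and Ikzf3 (−0.60) were not called. In these lists unirradiated replicate 5 was often the lowest of its group. Of 5 plasma cell genes 1 fell, Mzb1, by 1.90 (SE 0.27), and Jchain (−1.41) and Prdm1 (−0.85) were not called.

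MHC class II genes present peptides to CD4 T cells and are expressed by B cells, monocytes and dendritic cells. Of 10 measured, 9 fell, at a median of −1.60. With replicates 1 and 2 averaged 3 fell, and likewise with the covariates or the slide as a block, and 5 fell under quantile normalization. H2-Oa, a chain of the B-cell regulator of peptide loading, read 5.45, 5.59, 5.79, 5.81 and 4.46 at 0 Gy and 1.59, 1.73, 1.10, 1.71 and 1.77 at 7 Gy. It fell by 3.84 (SE 0.29) and its partner H2-Ob by 3.44 (SE 0.31). H2-DMb2 was at least 11.2-fold lower. The classical chains fell less in the fit, with H2-Aa at −1.60, H2-Ab1 at −1.59 and H2-Eb1 at −1.49, while Cd74, the invariant chain, changed by −1.71 and the transactivator Ciita by −1.32.

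**Figure D3:**
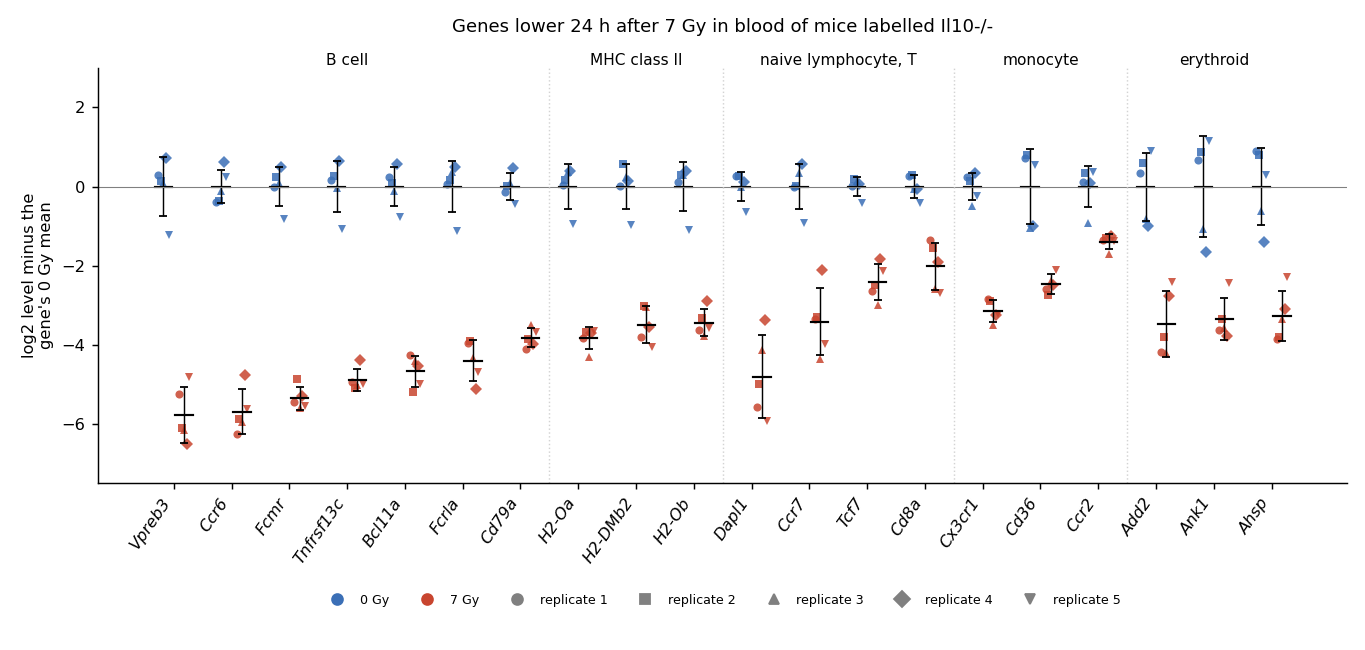
Log2 level of each array minus the gene's mean at 0 Gy, for genes that were lower 24 h after 7 Gy, by gene group. Blue points are the 5 unirradiated and red points the 5 irradiated mice labelled Il10-/-, with shapes for replicates, and bars show each group's mean and SD. The 7 Gy mean of Ccr6 stands at −5.70, and its 5 irradiated values lie below all its unirradiated values.

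T-cell genes changed far less than B-cell genes. Of 17 genes of the T-cell receptor and its coreceptors 2 fell, at a median of −0.61, against 1 with replicates 1 and 2 averaged. Cd8a, the coreceptor of cytotoxic T cells, read 3.14, 3.18, 2.81, 2.82 and 2.46 and then 1.54, 1.32, 0.30, 0.97 and 0.18, a fall of 2.02 (SE 0.30). The other Cd8a probe that passed the filters changed by −0.88 and was not called. Themis, needed for thymic selection, was at least 2.29-fold lower and was not called with replicates 1 and 2 averaged. Cd3e (−0.28), Cd4 (−0.44) and Lck (−0.62) were not called, and Cd247, the zeta chain, changed by 0.88. A brighter Cd4 probe, used in the marker sums below, did not pass the filters and read 6.72, 6.93, 6.87, 6.66 and 6.87 and then 6.70, 6.92, 7.06, 7.27 and 6.61, with overlapping groups.

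The program of naive and recirculating lymphocytes fell more clearly, in 6 of 10 members at a median of −1.44, and in 5 with replicates 1 and 2 averaged. Ccr7, which guides lymphocytes into lymph nodes, read 6.99, 7.01, 7.34, 7.57 and 6.09 and then 3.65, 3.70, 2.63, 4.88 and 3.03, a fall of 3.42 (SE 0.41). Tcf7, the factor TCF1 of naive and memory T cells, fell by 2.42 (SE 0.26). Dapl1 fell by 4.81 (SE 0.44), and Lef1 (−1.77), S1pr1 (−1.66) and Il7r (−1.21) fell too.

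None of 17 genes of NK and cytotoxic lymphocytes was called, and their median was 0.14. Gzmb changed by 1.13, Prf1 by −0.05 and Ncr1 by 0.08. None of 9 regulatory T-cell and checkpoint genes was called (Foxp3 −0.92, Ctla4 −1.05). Of 14 genes of the Th1, IL-12 and IL-27 axis, Il18r1, the IL-18 receptor chain of T and NK cells, fell by 1.62 (SE 0.30) but was not called with replicates 1 and 2 averaged, and Ifng changed by 0.25. The 5 measured genes of the Il10 pathway ranged from −0.48 to 0.04, and none was called.

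Of 16 chemokine receptors 6 fell, Ccr6 and Ccr7 among them, and none rose, and 5 fell with replicates 1 and 2 averaged. Cxcr5 changed by −2.88 and Cxcr4 by −1.89, whereas Cxcr2 (0.01), Ccr1 (−0.22) and Cxcr3 (0.42) were not called.

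Monocyte genes diverged, with 1 rise and 4 falls among 17. Scaling to 1 reference array gave 4 rises and the covariates 3. Cx3cr1, the fractalkine receptor of patrolling monocytes and also of NK cells, read 5.26, 5.18, 4.54, 5.37 and 4.80 and then 2.19, 2.13, 1.51, 1.77 and 1.81. It fell by 3.14 (SE 0.24; adjusted p = 1.08e-05 in limma), within slides by between 2.99 and 3.60. Cd36 fell by 2.47 (SE 0.40). Ccr2, by which classical monocytes leave the marrow, fell by 1.39 (SE 0.27), and Nr4a1, which patrolling monocytes require, changed by −1.30. Adgre1, an adhesion receptor that marks mouse macrophages, rose by 1.66 ± 0.29 (SE). Csf1r (−0.01), Lyz2 (0.61) and Cd68 (0.64) were not called.

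None of 21 mature neutrophil genes was called. Their median was −0.31, with S100a8 at −1.10 and Cxcr2 at 0.01. The granule genes of neutrophil precursors spread widely between mice, and 2 of 11 fell, none with replicates 1 and 2 averaged. Chil3, a chitinase-like protein, read 11.09, 11.20, 7.51, 10.57 and 11.29 and then 5.15, 4.94, 6.94, 7.22 and 7.87, so that unirradiated replicate 3 stood within the range of the irradiated mice. Mpo was at least 4.21-fold lower. Ltf (−2.91), Camp (−2.79) and Ngp (−2.60) were not called. Of 8 eosinophil, basophil and mast cell genes, the eosinophil ribonucleases Ear2 (−2.17 ± 0.29, SE) and Ear1 (−2.15 ± 0.29) and the receptor Il5ra (−1.40 ± 0.30) fell. The mast cell protease Cpa3 rose by 1.98 ± 0.38 (SE), with unirradiated replicate 3 at 2.71 and the others at 0.95 to 1.09. Ear1 and Ear2 are close paralogs, so their probes may share signal.

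**Figure D4:**
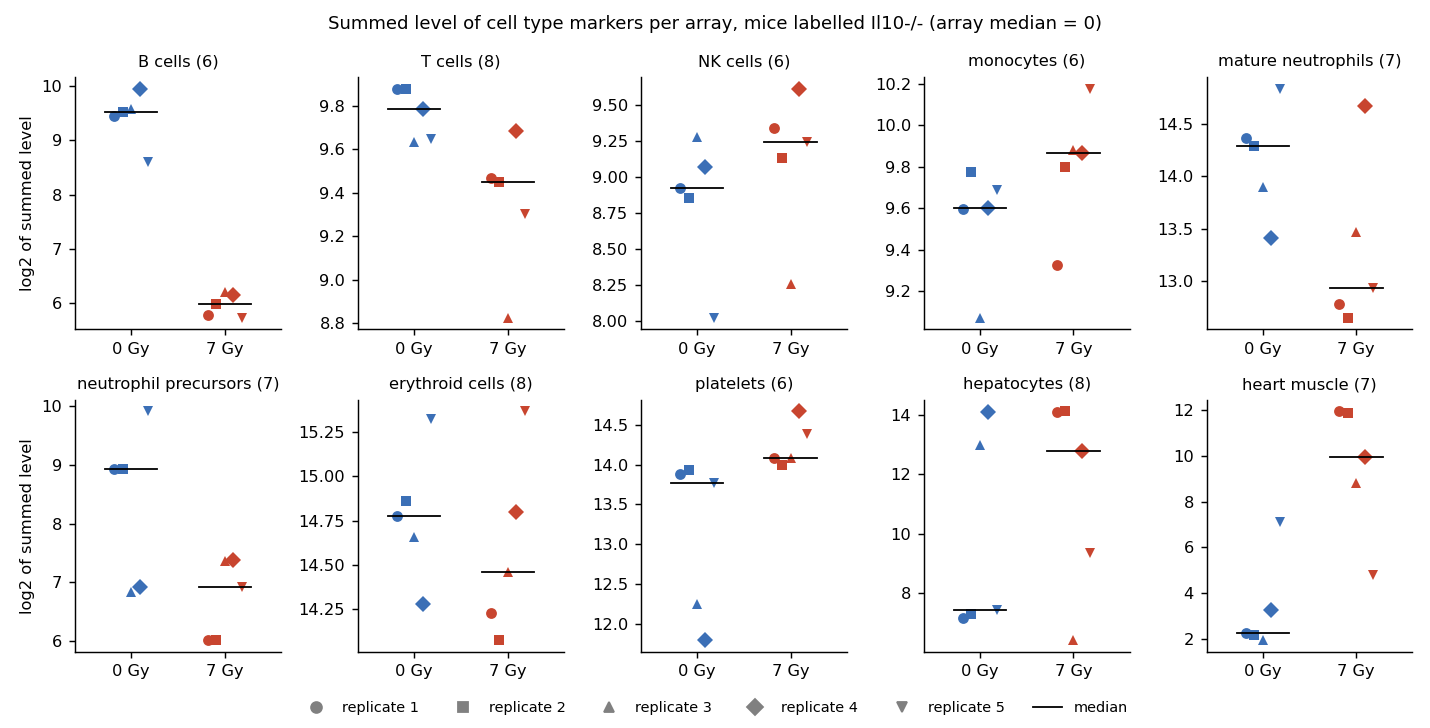
Summed level (log2) of fixed cell-type markers in each of the 10 mice labelled Il10-/-. Blue points are unirradiated and red points irradiated mice, shapes mark replicates and lines the group medians. B-cell markers lie at 8.61 to 9.95 without and at 5.74 to 6.21 with irradiation, and platelet markers at 11.8 to 13.9 and 14.0 to 14.7, while the ranges of the other types overlap.

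Summed over their markers, B cells stood lower and platelets higher at 7 Gy without overlap, while the ranges of the other types overlapped. For platelets the gap was narrow, between 13.94 in the highest unirradiated and 13.99 in the lowest irradiated mouse. None of the 6 platelet markers was called. The 6 B-cell markers fell in 5 members, and their summed level went from a range of 8.61 to 9.95 to one of 5.74 to 6.21, with 4 markers still well above background on every irradiated array. T-cell markers ranged from 9.63 to 9.88 and from 8.83 to 9.68, and NK markers from 8.02 to 9.28 and from 8.25 to 9.61. Markers of monocytes (9.07 to 9.78 and 9.33 to 10.2) and mature neutrophils (13.4 to 14.8 and 12.6 to 14.7) also overlapped. So did those of neutrophil precursors (6.84 to 9.91 and 6.01 to 7.39) and erythroid cells (14.3 to 15.3 and 14.1 to 15.4). The erythroid sum is carried mainly by Alas2, although 3 of its 8 markers fell. All types expected in whole blood were thus detected, and hepatocyte markers (7.15 to 14.1 and 6.40 to 14.1) and heart muscle markers (1.94 to 7.12 and 4.81 to 11.9) were present as well.

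Genes of the red cell membrane, transcribed in reticulocytes and their precursors, fell in 14 of 19 members and rose in none, at a median of −2.18. With replicates 1 and 2 averaged 8 fell, and 7 with the covariates. Add2 (chromosome 6, 86069490 to 86069549, mm9), which encodes an adducin of the membrane skeleton, read 4.46, 4.73, 3.30, 3.12 and 5.01 at 0 Gy and −0.05, 0.31, −0.10, 1.35 and 1.71 at 7 Gy. It fell by 3.48 (SE 0.47; adjusted p = 0.000482 in limma) with the groups apart. The ankyrin gene Ank1 fell by 3.35 (SE 0.53), and the anion exchanger Slc4a1 changed by −3.15. Gypc (0.83) and Sptb (−0.19) were not called.

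Erythroid regulators and iron uptake genes split, with 5 falls and 1 rise among 17. Averaging replicates 1 and 2 left 2 falls, and with the covariates 3 fell and none rose, while scaling to 1 reference array gave 3 rises. Ahsp, the chaperone of free alpha-globin, read 11.16, 11.05, 9.64, 8.86 and 10.55 and then 6.40, 6.44, 6.90, 7.15 and 7.95, a fall of 3.28 (SE 0.46). Car2, a carbonic anhydrase, fell by 2.75 (SE 0.42), and E2f2, a cell-cycle factor abundant in maturing red cells, by 2.80 (SE 0.51). Gfi1b, a repressor of both erythroid cells and megakaryocytes, rose by 1.76 ± 0.31 (SE). Klf1 (−0.41), Gata1 (0.78) and Tfrc (0.52) were not called. In heme synthesis 3 of 11 fell, which were Urod (−2.53 ± 0.37, SE), the mitochondrial iron importer Slc25a37 (−2.46 ± 0.46) and Uros (−1.35 ± 0.24), while the first enzymes Alas1 and Alas2 both changed by 0.05. Averaging replicates 1 and 2 left 2 of these falls.

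Platelet and megakaryocyte genes moved the other way. All 20 had a positive change, between 0.87 and 1.61, and 3 were called, against 1 with replicates 1 and 2 averaged and none with the covariates. P2ry12, the ADP receptor of platelets, read 6.07, 6.16, 5.12, 4.79 and 5.78 and then 7.33, 7.62, 6.62, 7.29 and 7.11, a change of 1.61 ± 0.31 (SE). Rgs18 rose by 1.51 ± 0.32 (SE) and Gng11 by 1.36 ± 0.32 (SE). The mean level of the list was 9.16, 9.27, 7.03, 6.61 and 8.84 in unirradiated and 9.06, 9.22, 9.28, 9.95 and 9.51 in irradiated mice. Unirradiated replicates 3 and 4 were thus low, and the other unirradiated mice were level with the irradiated ones.

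DNA repair genes, which are set here apart from the p53 targets, fell in small numbers. Of 18 homologous recombination and Fanconi genes, Fanca fell by 1.74 (SE 0.26) and Brca2 was at least 2.86-fold lower. Of 17 base excision and PARP genes 3 fell, and 2 with replicates 1 and 2 averaged. Parp1, which marks strand breaks with poly(ADP-ribose), read 3.33, 3.73, 3.16, 3.40 and 2.85 and then 0.71, 1.62, 0.69, 0.66 and 1.42, a fall of 2.28 (SE 0.27). The glycosylases Mutyh and Ung fell by 1.67 (SE 0.29) and 1.21 (SE 0.23). Of 17 genes of break sensing and end joining 4 fell, against none with replicates 1 and 2 averaged and 1 under scaling to 1 reference array. Among these, Atm was at least 2.83-fold lower, Atr fell by 1.40 (SE 0.31) and Prkdc, the kinase of end joining, by 1.39 (SE 0.31). Trp53 itself (−0.91) was not called.

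Cell cycle and replication genes fell in 7 of 38 members and rose in 1, at a median of −0.84. With replicates 1 and 2 averaged 1 fell. Ccnb2, a mitotic cyclin, changed by −2.20 ± 0.48 (SE) and Ube2c, a ubiquitin-conjugating enzyme of mitotic exit, by −1.92 ± 0.36 (SE), and both fell, although the Ccnb2 values of the groups overlapped. E2f8 fell by 1.52 (SE 0.29). Cdc45, a part of the replicative helicase, rose by 1.80 ± 0.31 (SE). Mki67 (−1.32) and Cdk1 (0.53) were not called. Of 32 clustered histone genes 1 rose, H2bc6 (1.48 ± 0.26, SE), and 2 fell, H1f5 (−1.27 ± 0.22) and H2ac4 (−1.34 ± 0.26), with much sequence shared among them. These histone counts are near the shares over all genes (3.34% rose and 5.81% fell). No fall was left with replicates 1 and 2 averaged, and quantile normalization gave 4 rises.

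Ribosomal protein genes changed by small amounts, most of them in the same direction. Of 46 measured members 42 had a negative change, at a median of −0.74 against −0.10 over all features. In 31 of the 46 the groups did not overlap, against 17.1% over all genes. Rpl4, Rps7 and Rpl13a were among the 4 that fell, by 1.02, 1.02 and 0.94. None fell with replicates 1 and 2 averaged or with the slide as a block. The median under scaling to 1 reference array was −0.27 over the 9 members that passed the filters there. Rps27l, a p53 target and not a constitutive ribosomal gene, rose by 1.46 ± 0.24 (SE).

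In glutathione and Nrf2 genes 1 of 25 rose and 2 fell, near the shares over all genes (3.34% and 5.81%), and 1 fell with replicates 1 and 2 averaged. Srxn1, which repairs peroxiredoxins, rose by 1.76 ± 0.36 (SE), a call not made with the slide as a block. Gpx1, the peroxidase that red cells carry in abundance, read 14.56, 14.70, 14.37, 14.10 and 15.13 and then 11.87, 12.23, 12.69, 12.96 and 13.52, a fall of 1.92 (SE 0.32). Mgst3 fell by 2.00 (SE 0.44). Gstt1 read 9.84, 9.79, 5.67, 5.96 and 7.26 and then 7.56, 7.52, 7.01, 9.37 and 7.20, so its groups overlapped and its change was 0.03 ± 0.82 (SE).

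Liver and heart muscle genes had large median changes that the spread between mice outweighed in most members. None of 29 liver genes was called, at a median of 1.66. Of 15 heart muscle genes 6 rose and 1 fell, at a median of 3.61, against 1 and 1 with replicates 1 and 2 averaged. The covariates are the mean levels of these same lists. The liver median of −0.14 and the lack of heart muscle calls with the covariates are therefore built into that fit. Myh6, the cardiac myosin heavy chain, read −0.59, −0.20, −0.92, 2.18 and 5.93 and then 10.85, 10.65, 7.61, 8.97 and 3.73. Its within-slide difference ran from −2.20 to 11.44, the slide of replicate 5 going against the others.

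The WT mice serve here only to ask whether the response differed with genotype. Among WT arrays, which are not shared with the comparison above, 1265 of the same features were called (6.78%), as 764 genes that rose and 383 that fell. Unirradiated WT replicate 5 was a weak array, with 29.9% of spots well above background. Its repeated spots had an SD of 0.379, against 0.0805 to 0.109 on the arrays labelled Il10-/-. The interaction of dose and genotype over all 20 arrays gave 0 calls in limma (0%), with 1334 features at an unadjusted p below 0.05 and a smallest adjusted p of 0.681. No call was made by the fit without moderated variances or without unirradiated WT replicate 5 either, and with the liver and heart covariates 7 genes were called. Of the 126 named genes that were called in mice labelled Il10-/-, 76 were also called in WT. A p that misses the threshold does not show that the responses are alike, and the intervals are wide.

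Genes that led the response gave the following values in both genotypes. Ccr6 changed by −5.70 ± 0.31 (SE) in mice labelled Il10-/- and by −5.35 ± 0.43 in WT, Ifit3 by 4.72 ± 0.38 and 4.62 ± 0.47, and Add2 by −3.48 ± 0.47 and −3.09 ± 0.49. Cdkn1a changed by 4.45 ± 0.31 and 5.42 ± 0.53, and Marco by 3.90 ± 0.24 and 5.53 ± 0.71. Named genes with wider gaps between the genotypes include the following. Gstt1 changed by 0.03 ± 0.82 in mice labelled Il10-/- and by 4.01 ± 0.63 in WT. Its means without and with irradiation were 7.70 and 7.73 in mice labelled Il10-/- and 3.04 and 7.05 in WT. The genotypes thus lay further apart without irradiation than with it. Saa3 changed by 3.59 ± 0.32 and 7.18 ± 0.89, Saa1 by 3.41 ± 0.57 and 6.26 ± 0.57, and Lbp by 1.75 ± 0.31 and 4.53 ± 0.53. Liver genes moved alongside, in that none of 29 liver genes rose in mice labelled Il10-/- against 18 in WT, at medians of 1.66 and 6.93, and 2 of 10 acute-phase genes against 8. In WT the hepatocyte markers ranged from 6.33 to 7.87 without and from 7.51 to 15.7 with irradiation, and their part in these gaps was not tested. Myh6 changed by 7.08 ± 1.48 and 3.36 ± 1.88. Cd163l1, a scavenger receptor of gamma-delta T cells, fell from 3.33, 3.37, 5.87, 6.37 and 6.29 to 0.30, 0.79, −0.06, 0.46 and 0.35, a change of −4.68 ± 0.60 against −1.38 ± 0.55 in WT. Its WT means were 1.14 without and −0.23 with irradiation. WT thus started far below the unirradiated mice labelled Il10-/-, whose mean was 5.05. E2f8 changed by −1.52 ± 0.29 and 0.19 ± 0.41, from unirradiated means of 0.93 and −0.12. The part of such unlike starting levels in the gaps was not tested. None of these differences in change was called, and the unadjusted p was 0.000227 for Lbp and 0.000778 for Cd163l1 in the limma interaction.

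**Figure D5:**
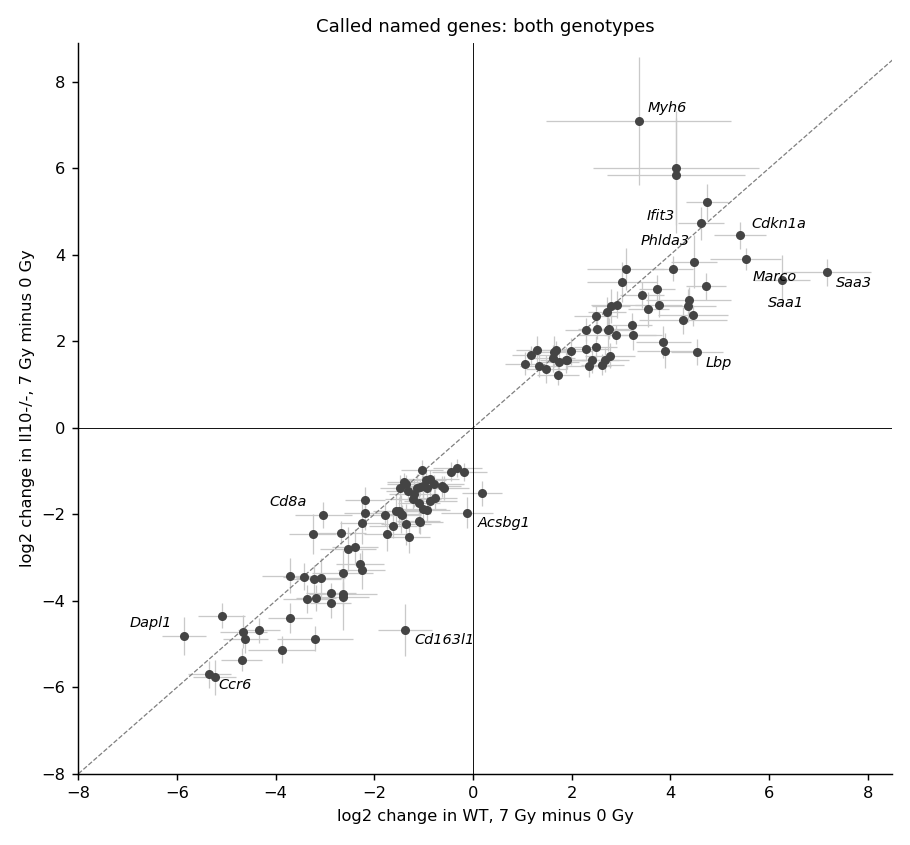
Log2 change (7 Gy minus 0 Gy) in WT (horizontal) and in mice labelled Il10-/- (vertical) for the 126 called named genes, with standard errors as grey lines and equality as a dashed line. The genes were chosen on the vertical axis. Points lie along the dashed line, with Saa3, Lbp and Cd163l1 among those away from it.

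The study trained a classifier on Il10-/- mice and followed some genes by PCR, and both lists were picked by it from these arrays, so their counts are no independent evidence. Of 23 classifier genes, each read by its brightest probe, 10 rose, 12 fell and Pvt1 (−0.14) was not called. The Pvt1 probe in the classifier is another one, which rose by 1.98 ± 0.23 (SE). Besides genes already described, Trim47 rose by 2.15 ± 0.22 (SE) and Ier5l by 1.56 ± 0.20, while Chst3, a sulfotransferase, fell by 5.13 (SE 0.32), Zfand6 by 2.01 (SE 0.23) and Rhobtb2 by 1.46 (SE 0.22). Of 12 PCR genes 6 rose and 2 fell. The falls were Il18r1 and Acsbg1, an acyl-CoA synthetase (−1.96 ± 0.36, SE). Gstt1, Alas1 (0.05), Ifitm1 (−0.32) and Cyp2b10 (0.93) were not called.

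The called genes whose pattern over the 10 arrays was most like that of Cdkn1a were Oas1a (Pearson r = 0.990), Rab11fip5 (0.989), Qpctl (0.986), Engase (0.986) and Trim47 (0.985). These values include the step between the groups.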

How the data were processed

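Blood RNA of 20 mice was labelled with Cy3 and hybridised to single-colour Agilent mouse arrays, 1 array a mouse. For each array the authors deposited the scanner output, with an intensity per spot that the scanner software had background-subtracted and detrended but not normalized between arrays. The submitters' processing notes name Agilent Feature Extraction 10.7, and the file headers name 12.0.2.2 with coordinates of build mm9. The authors also deposited a table of log2 values scaled to 1 reference array, which served as an alternative.

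Samples were grouped by their titles. Processed intensities were converted to log2, outlier spots were dropped, repeated spots were averaged to 1 value a probe, and each array was centred on the median of its 39429 non-control probes. Probes were dropped where at least 25% of the 20 arrays gave an outlier or a signal not above background, or where fewer than 20% of arrays differed 1.5-fold from the probe's median. The 10 arrays were fitted with limma 3.58.1 in R 4.3.3, the difference from WT as an interaction over 20 arrays, and summaries were made in Python 3.11.15 with pandas 2.3.3. The steps were tested on simulated data.

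Symbols came from RefSeq for 27969 of 28290 probes with an accession, and 174 older symbols were updated by synonym. In lists a gene is represented by its brightest probe that passed the filters. Where a probe was well above background on no array of a group, "at least" compares the brighter mean with the higher of the probe's own signal and the lowest signal well above background on each array.

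The members and the 45 gene lists were chosen with earlier results of these data known, so no list was tested. Named genes are the 12 largest rises and falls whose groups do not overlap, up to 3 called members per list and direction, the study's classifier and PCR genes and Il10. Other members were named after their values were seen, and some genes are not reported here. With 5 arrays a group, their number limits the precision, and p-values assume that the 5 labelled replicates of a group are separate mice.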

Additional observations from a re-analysis of the deposited data

Results flagged for a closer look

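Of 264 sets of 5 values, one for each named gene and group, 28 held a mouse whose distance to its nearest neighbour exceeded the Dixon limit of 0.71 of the group's range. Chance gives about 1 set in 20. Replicates 1 and 2 resemble each other, which narrows the spread of the remaining values. All values are log2 signals relative to the array median.

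Unirradiated replicate 5 was the lowest mouse for a series of lymphocyte genes. It read 3.44 for Fcrla (others 4.63 to 5.04), 4.46 for H2-Oa (5.45 to 5.81), 4.25 for H2-Ob (5.48 to 5.75), 3.79 for Nsg2 (4.57 to 4.72) and 3.68 for Tcf7 (4.11 to 4.29), and 4.70 for the sensor Zbp1 (4.93 to 5.01). The same mouse was highest for the heart muscle genes Myl2 at 5.32 (others 0.43 to 1.70) and Tnnt2 at 3.79 (−1.64 to −0.89). How far these values hang together was not tested.

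Unirradiated replicate 3 was low for Ccr2 at 4.64 (others 5.66 to 5.91), Chil3 at 7.51 (10.57 to 11.29) and Il18r1 at 4.23 (5.10 to 5.36), and high for Brca2 at 1.16 (0.40 to 0.46) and Cpa3 at 2.71 (0.95 to 1.09). Unirradiated replicate 4 was high for Bbc3 at 4.67 (4.48 to 4.52) and Dhx58 at 3.00 (others at most 2.42), and unirradiated replicate 1 for H2ac4 at 5.29 (4.85 to 4.96).

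Irradiated replicate 4 was highest for 3 interferon-induced genes, with Ifit3 at 8.60 (others 6.92 to 7.26), Ifit3b at 7.03 (5.51 to 5.84) and Ifitm1 at 11.33 (8.01 to 8.74). It was also high for Gstt1 at 9.37 (7.01 to 7.56) and Tnfrsf13c at 0.61 (−0.09 to 0.07), the latter well above background on no irradiated array. Irradiated replicate 3 was high for Col6a1 at 4.24 (1.44 to 2.18) and low for H2-Oa at 1.10 (1.59 to 1.77), Il18r1 at 2.53 (3.48 to 3.84), Rgs18 at 7.88 (8.43 to 8.64) and Cyp2b10 at 4.10 (5.01 to 5.36). Irradiated replicate 5 was low for Cfd at 2.77 (5.06 to 5.33) and high for Trim47 at 5.37 (4.70 to 4.79).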

How the results depend on the processing

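The called named genes kept their direction in every alternative that gave a value, and 66 of the 126 stayed called in each of them except normexp background with median scaling, where no gene of any kind was called (0 in total, 0 that rose, 0 that fell, 0 named genes and 0 list members) and 436 features reached an unadjusted p below 0.05 in limma. Normexp with quantile normalization, chosen after seeing the data, gave 983 genes, 432 rising and 552 falling. The cause of this gap was not tested. Scaling to 1 reference array gave 848 rises and 841 falls, and the values that the authors processed gave 854 rises and 793 falls. The median change over all features was −0.01 under 75th percentile scaling, 0.14 with the reference array, −0.17 under quantile normalization and 0.19 in the authors' values. A 5% Benjamini-Hochberg rate alone gave 3628 genes, 1307 rising and 2334 falling, and 315 list members against 194. Replicates 1 and 2 averaged gave 743 genes (330 and 413). Liver and heart covariates gave 669 (316 and 353), 81 named genes, 123 list members and, for the difference from WT, 7 genes against 0 in every other alternative run. Without each array in turn there were 1037 to 1404 genes, 391 to 585 rising and 608 to 989 falling, the lowest falls being those without unirradiated replicates 1 or 2. Same-numbered mice did not consistently deviate together (correlations −0.38, −0.24, −0.21, 0.10 and 0.42). They shared a slide, which the main fit does not model, and these values do not decide whether the slides pair them. With the replicate block, which is also the slide, 1173 genes were called, 357 rising and 816 falling. The fit of all 4 groups applies to the response alone. Signal over background limits the low genes: 66 probes well above background on every unirradiated and no irradiated array failed the filters and were not tested.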

Other observations

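Detection differed between the groups for some probes. Among all probes, 274 were well above background on all 5 unirradiated and on no irradiated array of mice labelled Il10-/-. Of these, 208 were tested and 93 were called. They were picked by the difference between the groups, so a share above the 9.13% of all features follows from the choice. The reverse held for 3 probes, those of Col6a1 and Chst4 and the other Cdkn1a probe. The share of spots well above background was 51.7% and 53.8% on irradiated replicates 1 and 2, inside the unirradiated range of 49.4% to 57.8%. On the other irradiated arrays it was 34.6% to 41.0%. In WT it was 29.9% to 54.7% at 0 Gy and 42.1% to 55.5% at 7 Gy. The part of this share in the counts was not tested.

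The 7 genes whose response differed from that of WT once the liver and heart levels were covariates were Col18a1, Ngp, Wfdc21, Camp, Ltf, Tmem86b and Fabp3. Ngp, Camp and Ltf are granule proteins of neutrophil precursors. Their differences in response, mice labelled Il10-/- minus WT, were −5.22 ± 0.88 (SE), −4.14 ± 0.71 and −5.29 ± 0.99 with the covariates and −2.93, −2.16 and −2.78 without them, where none was called. A further Camp probe gave −3.42 ± 0.66 with them. The genes were seen after the fit and no hypothesis was tested on them.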
